A study of Homo sapiens with 18 samples.

Results

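The genes described here are 42 heat shock proteins, their cochaperones and the factors that switch them on, chosen by gene symbol from a list of families. They are 42 of the 28063 genes that each table lists. The rule uses symbols and no measured value, but the list was drawn up with earlier results of these data known. They fall into HSP70 proteins, J-domain proteins and other HSP70 partners, HSP90 proteins and their cochaperones, the HSP60 and HSP10 pair of mitochondria, the 8 subunits of the CCT ring, the heat shock factors HSF1 and HSF2, and a pair of further stress genes, HSPB1 and SERPINH1.

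Chaperones bind unfolded or half-made proteins and keep them from clumping until they reach their native form. HSP70, loaded by J-domain proteins, takes hold of chains as they leave the ribosome and can pass them to HSP90, which finishes kinases and steroid hormone receptors with the help of cochaperones, while the closed rings of HSP60 and CCT fold their clients inside a chamber. In stressed cells the heat shock factor HSF1 binds arrays of short inverted repeats, called heat shock elements, in front of many of these genes, and dividing cells also make several of the family members constantly.

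New messenger RNA was measured in human neuroblastoma lines with the nucleoside analogue 4-thiouridine (4sU), which RNA takes up while it is being made, so that its values stand for transcripts of that time; the rule for counting a read as new is not given in the sources. The lines IMR-32, SK-N-DZ and KELLY, all labelled wild type, were given 1 uM BRM014, an inhibitor of the chromatin remodelling ATPases SMARCA4 and SMARCA2. Each was set against its own line given DMSO. In addition, engineered IMR-32 cells, in which a mini auxin-inducible degron is joined to SMARCA4 (SMARCA4-mAID), were given 500 uM auxin, which marks the tagged protein for destruction, and were set against the same cells given ethanol. Each of these 8 groups had 2 libraries, and all 16 had been exposed to 500 uM 4sU over the final 2 h. Another 2 KELLY libraries without 4sU measured the background. The sources used here give neither the hours of exposure to either agent nor whether the degron cells are 1 clone. They also do not tell separate cultures from repeat libraries, and p-values then rest on a spread that may be technical. IMR-32 grew in MEM and KELLY and SK-N-DZ in DMEM, so line and medium cannot be told apart where IMR-32 is compared with either.

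Gene counts per library ranged from 724913 to 775064 in BRM014-treated IMR-32 and SK-N-DZ cells, against 1148208 to 1740475 in the other labelled groups. Reads without a gene made up 57.3% and 57.4% in BRM014-treated IMR-32 cells, against 50.8% and 53.5% with DMSO. The part of depth and of these reads in the results was not tested. Levels are in CPM, a gene's counts scaled to the total of its library with the TMM factor, so a value depends on what else that library holds. The adrenergic neuroblastoma markers PHOX2A, HAND2, GATA3, ISL1 and MYCN were present in each vehicle group, and 3 of 9 mesenchymal markers, PRRX1, WWTR1 and COL1A1, were at or near 0. Others were not: TWIST1 was made in every vehicle group, VIM in IMR-32 (106 and 104 CPM), SNAI2 in IMR-32 (74.3 and 87.9 CPM) and FN1 in SK-N-DZ (166 and 179 CPM). Summed over its 9 genes the mesenchymal list stood at 499 and 519.9 CPM with BRM014 in KELLY, against 177 and 229.7 CPM with DMSO, with TWIST1 alone called among 6 tested genes, as higher. It was at 362 and 376 CPM with BRM014 in IMR-32, against 466 and 474 CPM with DMSO, with TWIST1 called lower, and at 452 and 384 CPM in SK-N-DZ, against 345 and 360.2 CPM. Of 12 adrenergic markers tested, 3 were called lower and 0 higher with BRM014 in IMR-32, 6 lower and 2 higher in KELLY, 5 lower and 4 higher in SK-N-DZ, and 2 lower and 1 higher with auxin. TH had 0.653 and 0 CPM with BRM014 in KELLY, against 118 and 67.7 CPM with DMSO. The part of either marker list in the results was not tested. TH and DBH, enzymes that adrenergic cells use to make catecholamines, had 0 or 1 and 0 to 4 counts per vehicle-treated library in IMR-32 and SMARCA4-mAID cells. SMARCA4 RNA was at 663 and 607 CPM in auxin-treated cells and 752 and 867 CPM in ethanol-treated ones, and it does not show the loss of the protein. The parental IMR-32 cells with DMSO had 90.4 and 107 CPM. In the unlabelled libraries the members together held 0.138% of their labelled KELLY counts, against 0.348% for all genes, and 29 of the 42 had no count at all.

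The sequence in front of the members was searched for the elements that HSF1 is known to bind. RefSeq promoter windows (GRCh38.p14, 250 bases before a transcription start to 50 after it) were matched by symbol for 37 of the 42 members, with 54 windows in all. ST13, STUB1, FKBP4, CCT6A and HSF1 were not matched. A heat shock element of 3 units on either strand, here GAA, TTC and GAA with NN between neighbours, stood in 8 of the 54 windows, or 14.8%, against 0.490% of all 35114 windows of the same length. The members that hold it are HSPA8, DNAJA1, DNAJB6, HSP90AA1, HSP90AB1, CHORDC1, HSPD1 and SERPINH1. Elements of 2 units, also on either strand, were found in 29.6% of the members' windows as GAANNTTC, against 6.77% of all, and in 24.1% as TTCNNGAA, against 7.74%. Each 3-unit element contains one of either kind. The 250 bases before 1 start are shown for HSPA8, HSP90AA1, HSP90AB1, HSPD1 and SERPINH1, picked by hand from the members with a 3-unit element. CHORDC1 was added for its run of overlapping elements and DNAJB1 as a gene with 2-unit elements alone. FKBP5, TRAP1 and BAG1, also called with BRM014, have windows with neither kind of element and are not shown. Where a gene has several windows, the one with most elements was chosen. HSP90AA1, HSP90AB1, HSPD1, SERPINH1 and DNAJB1 each also have a window that holds neither kind of element. Capitals mark 2-unit and 3-unit elements, and letters that match are a description, not a measured site.
HSPA8 (chr11:123062137-123062386, minus strand): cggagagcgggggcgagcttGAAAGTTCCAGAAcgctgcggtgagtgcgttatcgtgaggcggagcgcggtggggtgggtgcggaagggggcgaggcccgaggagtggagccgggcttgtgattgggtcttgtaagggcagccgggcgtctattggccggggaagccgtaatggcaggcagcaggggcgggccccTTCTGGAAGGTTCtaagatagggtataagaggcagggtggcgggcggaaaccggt
HSP90AA1 (chr14:102087045-102087294, minus strand): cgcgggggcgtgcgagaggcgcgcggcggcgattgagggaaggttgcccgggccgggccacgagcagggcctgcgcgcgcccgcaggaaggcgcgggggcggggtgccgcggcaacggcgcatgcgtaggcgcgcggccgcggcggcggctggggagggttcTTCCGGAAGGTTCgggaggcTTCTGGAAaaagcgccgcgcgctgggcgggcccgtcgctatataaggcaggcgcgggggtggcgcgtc
HSP90AB1 (chr6:44247693-44247942, plus strand): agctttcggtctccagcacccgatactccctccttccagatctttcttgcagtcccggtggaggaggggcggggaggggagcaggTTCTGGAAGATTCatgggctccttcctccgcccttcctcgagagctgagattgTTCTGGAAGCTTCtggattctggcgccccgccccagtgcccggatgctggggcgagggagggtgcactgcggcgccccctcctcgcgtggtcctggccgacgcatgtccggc
CHORDC1 (chr11:90223050-90223299, minus strand): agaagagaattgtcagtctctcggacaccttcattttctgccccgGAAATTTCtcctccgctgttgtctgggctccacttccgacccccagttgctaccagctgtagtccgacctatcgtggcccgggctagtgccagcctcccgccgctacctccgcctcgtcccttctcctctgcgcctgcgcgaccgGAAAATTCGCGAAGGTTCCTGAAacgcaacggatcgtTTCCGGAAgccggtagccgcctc
HSPD1 (chr2:197499841-197500090, minus strand): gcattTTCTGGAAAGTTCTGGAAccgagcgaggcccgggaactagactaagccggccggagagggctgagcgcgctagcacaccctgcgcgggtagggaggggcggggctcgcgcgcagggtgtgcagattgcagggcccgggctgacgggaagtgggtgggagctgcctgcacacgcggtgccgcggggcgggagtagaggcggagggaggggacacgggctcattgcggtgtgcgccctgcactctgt
SERPINH1 (chr11:75562003-75562252, plus strand): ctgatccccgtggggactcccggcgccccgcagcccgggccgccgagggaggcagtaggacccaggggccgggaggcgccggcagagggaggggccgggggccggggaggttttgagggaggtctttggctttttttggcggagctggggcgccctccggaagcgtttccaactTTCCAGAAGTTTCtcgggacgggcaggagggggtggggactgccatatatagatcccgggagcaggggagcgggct
DNAJB1 (chr19:14518398-14518647, minus strand): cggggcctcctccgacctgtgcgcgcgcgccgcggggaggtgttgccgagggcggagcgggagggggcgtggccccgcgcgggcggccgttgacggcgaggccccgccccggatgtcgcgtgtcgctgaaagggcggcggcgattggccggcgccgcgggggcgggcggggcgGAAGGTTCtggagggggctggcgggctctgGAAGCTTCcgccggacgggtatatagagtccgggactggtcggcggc

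With BRM014 most called chaperone genes were lower than with DMSO, in all 3 lines. Of the 41 members with enough counts to test (HSPA1A had 0 to 6 counts per library and was not tested), 12 fell and 0 rose in IMR-32, 9 fell and 0 rose in KELLY, and 14 fell and 2 rose in SK-N-DZ. Calls rest on edgeR's quasi-likelihood test, with p-values adjusted by the Benjamini-Hochberg method over all 12853 genes tested and a threshold of 0.05. Among all of these, 6.57% fell and 6.26% rose in IMR-32 (12.8% called), 4.98% and 6.57% in KELLY (11.6% called), and 9.55% and 9.88% in SK-N-DZ (19.4% called). DESeq2 called 11 members lower in IMR-32, 9 in KELLY and 13 in SK-N-DZ, with 2 higher in SK-N-DZ and 0 in the other lines. Across the 19915 genes given to DESeq2, it called 1116 lower and 1266 higher for SK-N-DZ. For KELLY these counts were 627 and 817, for IMR-32 762 and 870. Members with an unadjusted p below 0.05 in edgeR numbered 14 in KELLY and 19 each in SK-N-DZ and IMR-32. The share of all tested genes at that unadjusted p was not counted. The members' median log2 fold change was -0.44 in IMR-32, against -0.02 for all genes, -0.26 in KELLY, against 0.00, and -0.26 in SK-N-DZ, against -0.04. Counting a gene where both treated libraries lay on the same side of both controls, 25 members were lower and 5 higher in IMR-32, against 26.6% and 24.2% of all tested genes. These were 23 and 5 in KELLY, against 25% and 25.8%, and 21 and 6 in SK-N-DZ, against 30.6% and 25.7%. In each line, leaving out any 1 library of the comparison lowered the count of called members and also that of all tested genes called. Such a fit leaves 1 library in a group. In these bulk samples, fewer cells of a type and less new RNA per cell cannot be told apart.

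**Figure D1:**
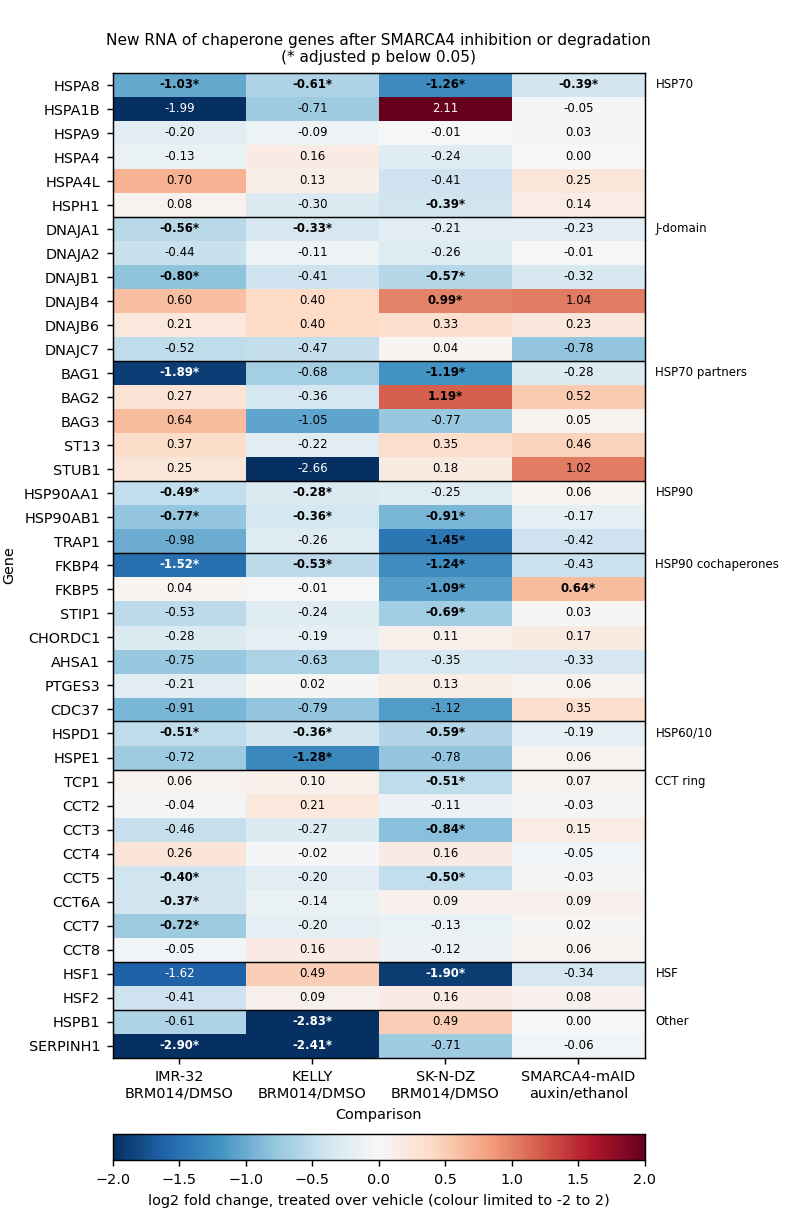
Log2 fold changes of new RNA, treated over vehicle, for the 41 chaperone genes tested (rows, by family) in 4 comparisons (columns); asterisks and bold type mark an adjusted p below 0.05 in edgeR, and the colour scale stops at -2 and 2. HSPA8, HSP90AB1, FKBP4 and HSPD1 are marked as lower in all 3 BRM014 columns, and the auxin column holds 2 marks, HSPA8 lower and FKBP5 higher.

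Just 4 members, HSPA8, HSP90AB1, FKBP4 and HSPD1, fell in each of the 3 lines, where 1.42% of all tested genes did so. Another 6 members were called in 2 lines and 13 in 1 line, and 18 of the 41 were called in none of the 4 treatment comparisons. The shares of all tested genes in these classes were not counted, so these numbers are a description only. By comparison, 12.8% of all tested genes were called in IMR-32, 11.6% in KELLY, 19.4% in SK-N-DZ and 2.19% with auxin. All members together took 0.748% and 0.785% of the gene counts in BRM014-treated IMR-32 cells, against 1.07% and 1.07% with DMSO. In KELLY the shares were 0.848% and 0.831% with BRM014 and 0.975% and 1.08% with DMSO. SK-N-DZ gave 0.691% and 0.640% with BRM014 and 0.922% and 0.903% with DMSO. In each of the 3 lines both treated libraries lay below both control libraries.

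Levels were also summed by family, without a test of differences between families. Summed new RNA of the 3 HSP90 proteins was 1743 and 1757 CPM with BRM014 in IMR-32, against 2764 and 2737 CPM with DMSO, and 1142 and 1149 CPM against 1915 and 1864 CPM in SK-N-DZ. The 7 HSP70 proteins summed to 1325 and 1169.6 CPM with BRM014 in SK-N-DZ, against 2094 and 1938 CPM with DMSO. In IMR-32 that sum was 1663 and 1875 CPM with BRM014, against 2740.1 and 2679.5 CPM with DMSO, of which HSPA8 alone made 760.3 and 978 CPM with BRM014 and 1765 and 1788 CPM with DMSO. Both families were lower in each treated library than in each control library of its line, also in KELLY. The 8 CCT subunits summed to 2054 and 2039 CPM with BRM014 in KELLY, against 1994 and 2269.7 CPM with DMSO, and these ranges overlapped. In the other lines the CCT sum was lower in both treated libraries than in both controls, with 2136 and 2155 CPM with BRM014 in IMR-32, against 2353 and 2392 CPM with DMSO, and 1658 and 1447 CPM with BRM014 in SK-N-DZ, against 1881 and 1799 CPM with DMSO. Auxin and ethanol libraries overlapped in the sums of HSP90, J-domain and CCT genes and did not in those of HSP70, HSP60/10 (both lower with auxin) and HSP90 cochaperones (higher with auxin).

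**Figure D2:**
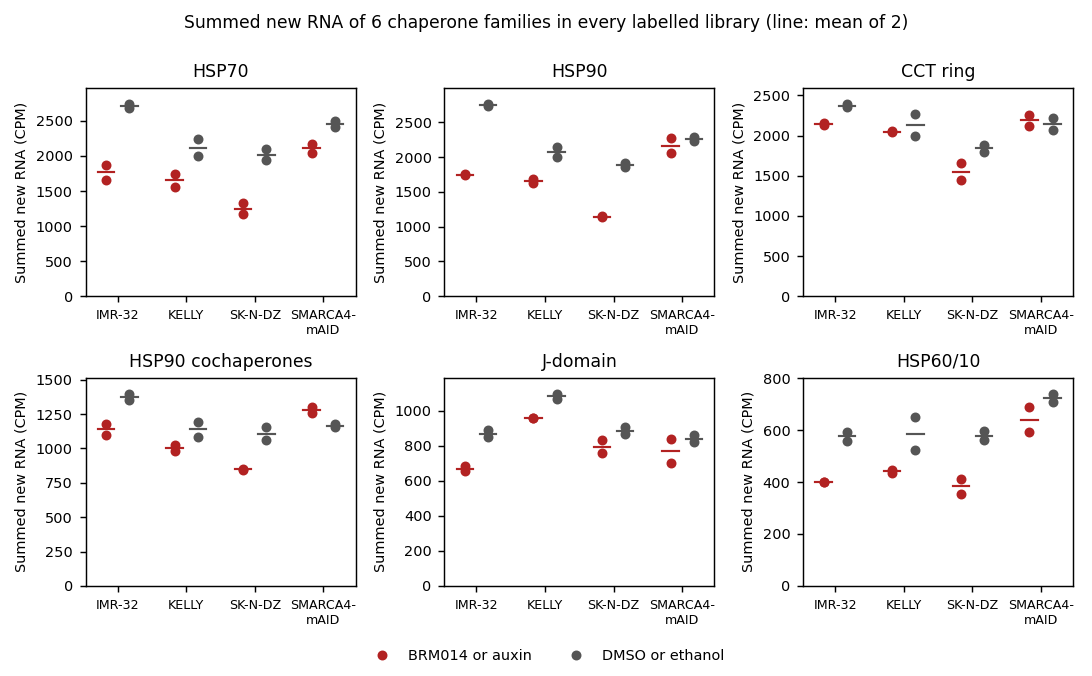
Summed new RNA in CPM (vertical axis, starting at 0) of 6 chaperone families in each labelled library, with treated libraries (red) left of their vehicle controls (grey) in 4 cell systems; short lines are means of 2. Treated points lie below control points for HSP70 and HSP90 in the 3 lines given BRM014, while those of the CCT ring overlap in KELLY and SMARCA4-mAID cells.

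Among the HSP70 genes, HSPA8 was the one called in all 3 lines. HSPA8 (chr11:123057489-123063230, minus strand), the constitutive HSP70 of the cytosol that also strips clathrin from vesicles, had 760.3 and 978 CPM with BRM014 in IMR-32, against 1765 and 1788 CPM with DMSO. In KELLY it had 783 and 684 CPM with BRM014 and 1065 and 1176 CPM with DMSO. SK-N-DZ cells had 494 and 437 CPM with BRM014 and 1158 and 1072 CPM with DMSO. Treated and control libraries were apart in all 3 lines. HSPA8 fell by 1.03 on the log2 scale in IMR-32 (SE 0.09, adjusted p = 5.10e-16), by 0.61 in KELLY (SE 0.09, adjusted p = 6.39e-08) and by 1.26 in SK-N-DZ (SE 0.10, adjusted p = 6.82e-20). Its promoter, shown above, holds 2 elements of 3 units, one far from the start and one near it.

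The other HSP70 proteins gave a different picture. HSPA9, the HSP70 of the mitochondrial matrix, had 311 and 279.6 CPM with BRM014 and 355 and 324 CPM with DMSO in IMR-32, and its log2 change was -0.20 there, -0.09 in KELLY and -0.01 in SK-N-DZ. HSPA4, a nucleotide exchange factor of the HSP110 class that resets HSP70, was at -0.13, 0.16 and -0.24, with no call. Its relative HSPH1 fell in SK-N-DZ by 0.39 (SE 0.14, adjusted p = 0.032), where it had 266 and 207 CPM with BRM014 and 302 and 318 CPM with DMSO. That call was lost with DESeq2 (adjusted p = 0.0525) and without BRM014 replicate 2 (-0.22) or either DMSO library (-0.40 and -0.36). HSPA1B, the HSP70 that heat induces, had few counts. It had 5 and 13 counts with BRM014 and 7 and 2 counts with DMSO in SK-N-DZ, where its 2.11 was not called (adjusted p = 0.0664), and 1 and 1 counts against 11 and 4 in IMR-32. KELLY had more, with 22 and 22 counts with BRM014 and 48 and 23 with DMSO. HSPA1A and HSPA1B are near-identical, so reads could have been split between them and both values are uncertain.

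J-domain proteins hand clients to HSP70 and start its ATP cycle, and a few of them fell. DNAJB1, the main heat-inducible one of the cytosol, had 85.5 and 101 CPM with BRM014 in IMR-32, against 165 and 160.1 CPM with DMSO. In SK-N-DZ it had 152 and 115 CPM with BRM014 and 211 and 183 CPM with DMSO. The groups did not overlap in either line, nor in KELLY, where it had 176 and 147 CPM with BRM014 and 214 and 214 CPM with DMSO. It fell by 0.80 in IMR-32 (SE 0.19, adjusted p = 0.00193) and by 0.57 in SK-N-DZ (SE 0.18, adjusted p = 0.0128), and was at -0.41 in KELLY (adjusted p = 0.0836). The SK-N-DZ call was lost when GC content and length trends were removed (-0.30, adjusted p = 0.284). It was also lost without BRM014 replicate 2 (-0.38) or DMSO replicate 1 (-0.44).

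DNAJA1, a farnesylated J-domain protein of the cytosol, had 249 and 228 CPM with BRM014 and 361 and 339.5 CPM with DMSO in IMR-32, and 357 and 299 CPM with BRM014 and 390.3 and 437 CPM with DMSO in KELLY. It fell by 0.56 in IMR-32 (SE 0.13, adjusted p = 0.00141) and by 0.33 in KELLY (SE 0.12, adjusted p = 0.0497). The KELLY value sat at the threshold, and adjusted p was 0.0609 with no filter on low counts. The call was also lost without BRM014 replicate 2 (-0.22), DMSO replicate 1 (-0.41) or DMSO replicate 2 (-0.25). DNAJB4 went the other way. It had 53.2 and 37.9 CPM with BRM014 in SK-N-DZ, against 17.4 and 28.1 CPM with DMSO, and rose by 0.99 (SE 0.35, adjusted p = 0.035). That value was 0.48 after the GC and length correction (adjusted p = 0.415). The call was also lost without BRM014 replicate 1 or DMSO replicate 1 (0.72 and 0.72). DNAJA2, DNAJB6 and DNAJC7 were called in no treatment comparison.

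Of the HSP70 partners, BAG1, a nucleotide exchange factor that ties HSP70 to the proteasome, was the one to fall in more than 1 line. It had 4 and 18 counts with BRM014 in IMR-32, against 88 and 57 with DMSO, or 5.89 and 25.3 CPM against 64.7 and 52.2 CPM. In SK-N-DZ it had 25.3 and 20.2 CPM with BRM014 and 53.3 and 50.7 CPM with DMSO. The groups did not overlap in these lines. BAG1 fell by 1.89 in IMR-32 (SE 0.42, adjusted p = 0.000581) and by 1.19 in SK-N-DZ (SE 0.38, adjusted p = 0.0178). Without BRM014 replicate 1 the IMR-32 value was -1.25 and the call was lost. In SK-N-DZ the call was lost without any 1 of the 4 libraries, with values of -1.36 to -1.04.

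BAG2, which restrains the ubiquitin ligase STUB1, rose in SK-N-DZ by 1.19 (SE 0.35, adjusted p = 0.00825), with 59.8 and 48.0 CPM with BRM014 and 21.6 and 25.3 CPM with DMSO. It was 0.75 after the GC and length correction (adjusted p = 0.153), and its call was lost without BRM014 replicate 1 (1.02) or DMSO replicate 1 (1.11). BAG2 overlaps exons of RAB23 on the other strand, and with the strand setting not given, reads of the pair cannot be told apart. BAG3, which routes clients to autophagy, had 22.2 and 40.3 CPM with BRM014 and 83.3 and 45.6 CPM with DMSO in KELLY, and its -1.05 there was not called (adjusted p = 0.0737). ST13 was not called in any treatment comparison. STUB1 had too few counts, 0 to 14 per library, for a change to be detectable.

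Both cytosolic HSP90 genes gave calls, HSP90AB1 in 3 lines and HSP90AA1 in 2. HSP90AB1 (chr6:44246166-44253888, plus strand), made constantly by most cells, had 931 and 924 CPM with BRM014 in IMR-32, against 1599 and 1575 CPM with DMSO. In KELLY it had 1049 and 1057 CPM with BRM014 and 1300.4 and 1398 CPM with DMSO. SK-N-DZ cells had 659 and 741 CPM with BRM014 and 1310.4 and 1331 CPM with DMSO. No library of a treated group reached the level of its controls. HSP90AB1 fell by 0.77 in IMR-32 (SE 0.09, adjusted p = 9.76e-12), by 0.36 in KELLY (SE 0.08, adjusted p = 0.00101) and by 0.91 in SK-N-DZ (SE 0.09, adjusted p = 6.09e-15).

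HSP90AA1, the form that stress induces, had 799 and 819 CPM with BRM014 and 1141 and 1131 CPM with DMSO in IMR-32, and 583 and 536 CPM with BRM014 and 658 and 705 CPM with DMSO in KELLY. In SK-N-DZ it had 457 and 383 CPM with BRM014 and 526 and 473 CPM with DMSO. The groups were apart in each line. HSP90AA1 fell by 0.49 in IMR-32 (SE 0.10, adjusted p = 6.53e-05) and by 0.28 in KELLY (SE 0.09, adjusted p = 0.0335), and was at -0.25 in SK-N-DZ (adjusted p = 0.0685). The KELLY call was lost without BRM014 replicate 2, DMSO replicate 1 or DMSO replicate 2, with values of -0.33 to -0.23. Whether the 2 cytosolic genes differ in their change was not tested. TRAP1, the HSP90 of mitochondria, fell by 1.45 in SK-N-DZ (SE 0.36, adjusted p = 0.00171), with 25.3 and 25.3 CPM with BRM014 and 77.9 and 60.6 CPM with DMSO. It was at -0.98 in IMR-32 and -0.26 in KELLY with no call, and it shares exonic bases with DNASE1 on the other strand.

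**Figure D3:**
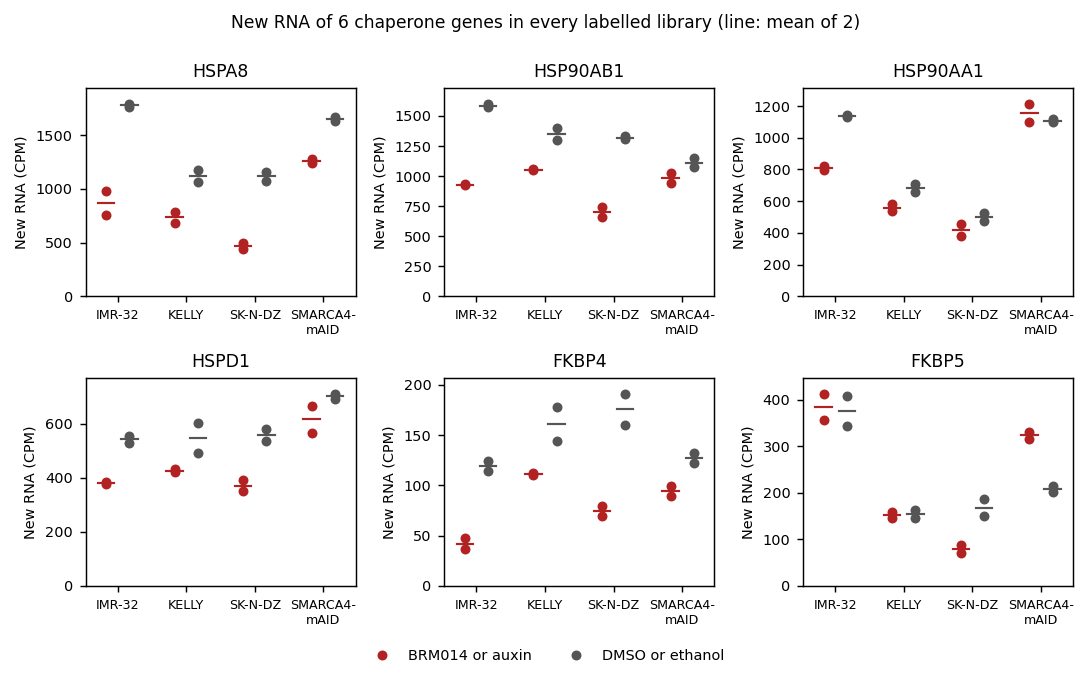
New RNA in CPM (vertical axes, each starting at 0) of HSPA8, HSP90AB1, HSP90AA1, HSPD1, FKBP4 and FKBP5 in each labelled library, with treated libraries (red) left of vehicle controls (grey) and means as short lines. HSPA8 lies between 437 and 494 CPM in BRM014-treated SK-N-DZ cells, below 1072 and 1158 CPM with DMSO, while FKBP5 is lower with BRM014 in SK-N-DZ and higher with auxin in SMARCA4-mAID cells.

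Cochaperones steer HSP90 through its cycle, and the immunophilins FKBP4 and FKBP5 are among them. FKBP4 (FKBP52), which promotes the signalling of steroid receptors bound to HSP90, had 47.1 and 36.5 CPM with BRM014 in IMR-32, against 124 and 114 CPM with DMSO. In KELLY it had 112 and 111 CPM with BRM014 and 144 and 178 CPM with DMSO. SK-N-DZ cells had 69.1 and 79.6 CPM with BRM014 and 159.9 and 191 CPM with DMSO. Controls were above treated cells throughout. It fell by 1.52 in IMR-32 (SE 0.24, adjusted p = 1.28e-06), by 0.53 in KELLY (SE 0.18, adjusted p = 0.0461) and by 1.24 in SK-N-DZ (SE 0.21, adjusted p = 1.72e-06). In KELLY the call was lost after the GC and length correction (-0.45, adjusted p = 0.121) and with no filter on low counts (adjusted p = 0.0646). It was also lost without any 1 of the 4 libraries, with values of -0.67 to -0.37. FKBP4 overlaps the antisense gene ITFG2-AS1.

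FKBP5 (FKBP51; chr6:35573585-35728583, minus strand), which holds steroid receptors in a state of low affinity and is itself switched on by the glucocorticoid receptor, had 70.5 and 87.1 CPM with BRM014 in SK-N-DZ, against 149.7 and 187 CPM with DMSO. It fell there by 1.09 (SE 0.17, adjusted p = 5.85e-07). In IMR-32 it had 357 and 413 CPM with BRM014 and 344 and 407 CPM with DMSO, and in KELLY 159 and 147 CPM with BRM014 and 145 and 163 CPM with DMSO. The groups overlapped in IMR-32 and KELLY, where the log2 differences were 0.04 and -0.01, with 95% intervals of -0.24 to 0.31 and -0.30 to 0.28.

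STIP1 (HOP), the bridge between HSP70 and HSP90, fell in SK-N-DZ by 0.69 (SE 0.19, adjusted p = 0.00393), with 102 and 126 CPM with BRM014 and 177 and 193 CPM with DMSO. The value was -0.35 after the GC and length correction (adjusted p = 0.221), and the call was lost without BRM014 replicate 1 (-0.55) or DMSO replicate 2 (-0.63). AHSA1, which speeds the ATPase of HSP90, had log2 changes of -0.75 in IMR-32, -0.63 in KELLY and -0.35 in SK-N-DZ. CDC37, which brings kinases to HSP90, had -0.91, -0.79 and -1.12 in the same lines, and neither was called. PTGES3 (p23), which steadies the closed form of HSP90, and CHORDC1 had no call in these comparisons either. CHORDC1 was at -0.28, -0.19 and 0.11. The bases before its start, shown above, hold 3 overlapping elements of 3 units.

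HSPD1 (chr2:197486581-197516737, minus strand) encodes HSP60, the folding chamber of the mitochondrial matrix. It had 377 and 384 CPM with BRM014 in IMR-32, against 555 and 529 CPM with DMSO. In KELLY it had 419 and 432 CPM with BRM014 and 492 and 604 CPM with DMSO. SK-N-DZ cells had 392 and 349.9 CPM with BRM014 and 536 and 580.0 CPM with DMSO. The groups were apart in every line. HSPD1 fell by 0.51 in IMR-32 (SE 0.11, adjusted p = 0.000632), by 0.36 in KELLY (SE 0.11, adjusted p = 0.0134) and by 0.59 in SK-N-DZ (SE 0.11, adjusted p = 2.54e-05). The KELLY call was lost without BRM014 replicate 1 (-0.34) or DMSO replicate 2 (-0.21).

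HSPE1 (HSP10), the lid of the HSP60 chamber, lies head to head with HSPD1, and its own RefSeq window begins beyond the bases printed for HSPD1. It had 23 and 25 counts with BRM014 and 50 and 61 counts with DMSO in KELLY, and fell there by 1.28 (SE 0.43, adjusted p = 0.0364). Its call was lost after the GC and length correction (-1.02, adjusted p = 0.134). It was also lost without BRM014 replicate 1, BRM014 replicate 2 or DMSO replicate 2 (-1.34 to -0.95). In IMR-32 and SK-N-DZ it was at -0.72 and -0.78, not called. Annotated exons of HSPE1 overlap those of HSPD1 and of HSPE1-MOB4, so reads could have been assigned to a neighbour.

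The CCT ring, which folds actin and tubulin, had some called subunits in IMR-32 and SK-N-DZ. In IMR-32, 3 of its 8 subunits fell and 0 rose, against 6.57% and 6.26% of all tested genes. CCT5 had 234 and 229 CPM with BRM014 and 315 and 297 CPM with DMSO, CCT6A 326 and 344 CPM with BRM014 and 383 and 485 CPM with DMSO, and CCT7 70.7 and 82.9 CPM with BRM014 and 122 and 131 CPM with DMSO. These subunits fell by 0.40 (adjusted p = 0.0407), 0.37 (adjusted p = 0.0357) and 0.72 (adjusted p = 0.0232). Each of these calls was lost under several alternatives. CCT5 was not called without any 1 of the 4 libraries (-0.46 to -0.37). CCT6A was not called without BRM014 replicate 1, BRM014 replicate 2 or DMSO replicate 2 (-0.45 to -0.20, the latter without DMSO replicate 2). CCT7 was not called without BRM014 replicate 1 or either DMSO library (-0.78 to -0.64). CCT7 was also lost after the GC and length correction (-0.56, adjusted p = 0.105), CCT5 with RLE scaling (adjusted p = 0.0519) and CCT6A with DESeq2 (adjusted p = 0.0659).

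In SK-N-DZ, again 3 of 8 subunits fell and 0 rose, against 9.55% and 9.88% of all tested genes, and CCT5 was shared with IMR-32. CCT3 had 165 and 184 CPM with BRM014 and 319.8 and 307 CPM with DMSO, and fell by 0.84 (SE 0.16, adjusted p = 1.45e-05), a call that no alternative removed. CCT5 had 199 and 193 CPM with BRM014 and 265 and 290.3 CPM with DMSO, and fell by 0.50 (adjusted p = 0.00479). TCP1, the subunit also called CCT1, had 166 and 147 CPM with BRM014 and 205 and 238 CPM with DMSO, and fell by 0.51 (adjusted p = 0.00904). Without BRM014 replicate 2 or DMSO replicate 2 both calls were lost, with -0.48 and -0.44 for CCT5 and -0.42 and -0.40 for TCP1. CCT2, CCT4 and CCT8 were called in none of the treatment comparisons, and their log2 values with BRM014 lay between -0.12 and 0.26. In KELLY, edgeR and DESeq2 called 0 of the 8, and 0 had an unadjusted p below 0.05 in edgeR.

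The heat shock factors themselves gave few calls. HSF1 (chr8:144291591-144314722, plus strand), the master factor of the heat shock response, had 6 and 8 counts with BRM014 in SK-N-DZ, against 45 and 75 counts with DMSO, or 7.98 and 10.1 CPM against 27.0 and 41.3 CPM, and fell by 1.90 (SE 0.61, adjusted p = 0.0166). The call was lost after the GC and length correction (-1.17, adjusted p = 0.212) and without either BRM014 library or DMSO replicate 2 (-2.09 to -1.57). In IMR-32 HSF1 had 0 and 3 counts with BRM014 and 13 and 4 with DMSO, too few for a call. KELLY went the other way, with 61 HSF1 counts over both BRM014 libraries and 42 over both DMSO libraries. The log2 value of HSF1 there was 0.49, not called, and both treated libraries lay above both controls in CPM. HSF1 overlaps DGAT1 on the other strand. HSF2, a related factor that works in development and pairs with HSF1, had 233 and 226 CPM with BRM014 and 260.3 and 351 CPM with DMSO in IMR-32, where its -0.41 was not called (adjusted p = 0.0866). Its log2 change was 0.09 in KELLY, and SK-N-DZ gave 0.16.

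HSPB1 and SERPINH1 gave the lowest log2 values among called members, both from low counts. HSPB1 (HSP27; chr7:76302544-76304295, plus strand), a small heat shock protein that holds unfolded chains without ATP, had 5 and 16 counts with BRM014 in KELLY, against 99 and 50 with DMSO, or 3.27 and 10.2 CPM against 59.4 and 38.0 CPM. It fell by 2.83 (SE 0.71, adjusted p = 0.00262), a call lost without BRM014 replicate 1 (-2.24, adjusted p = 0.0917) or DMSO replicate 1 (-2.47, adjusted p = 0.16). The unlabelled KELLY libraries held 2.68% of its labelled DMSO counts. In IMR-32 and SK-N-DZ it had at most 9 counts per library, and no change was detectable at this depth.

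SERPINH1 (HSP47), the collagen chaperone of the endoplasmic reticulum, had 0 and 5 counts with BRM014 in IMR-32, against 36 and 31 with DMSO, and 9 and 17 counts with BRM014 in KELLY, against 71 and 63 with DMSO. In CPM these were 0 and 7.02 against 26.5 and 28.4 and 5.88 and 10.9 against 42.6 and 47.9, and the groups were apart in both lines. It fell by 2.90 in IMR-32 (SE 0.72, adjusted p = 0.00221) and by 2.41 in KELLY (SE 0.51, adjusted p = 0.000261). The IMR-32 value was -1.98, adjusted p = 0.106 without BRM014 replicate 1, the library at 0. In SK-N-DZ it had 8 and 0 counts with BRM014 and 14 and 16 with DMSO, and was not called.

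With auxin few members were called. In SMARCA4-mAID cells 1 of the 41 members fell and 1 rose, where 1.16% of all tested genes fell and 1.03% rose (2.19% called), and the members' median log2 change was 0.03, against 0.00 for all genes. Both auxin libraries were below both ethanol libraries in 9 members and above them in 9, against 20.5% and 21.7% of all tested genes. HSPA8 had 1239 and 1281 CPM with auxin, against 1634 and 1663 CPM with ethanol, and fell by 0.39 (SE 0.09, adjusted p = 0.00302). FKBP5 had 315 and 331 CPM with auxin, against 201 and 214 CPM with ethanol, and rose by 0.64 (SE 0.14, adjusted p = 0.00144). In both genes the groups were apart. The HSPA8 call was lost without auxin replicate 1 (-0.37), and that of FKBP5 without auxin replicate 2 or ethanol replicate 1 (0.59 and 0.59). Leaving out any 1 of these 3 libraries left 1 call.

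Other members stayed below the threshold with auxin. HSP90AB1 had 944 and 1027 CPM with auxin and 1148 and 1076 CPM with ethanol (-0.17, adjusted p = 0.391), and the groups did not overlap. HSPD1 had 567 and 665 CPM with auxin and 711 and 691 CPM with ethanol (-0.19, adjusted p = 0.517). FKBP4 had 89.7 and 99.2 CPM with auxin and 132 and 122 CPM with ethanol (-0.43, adjusted p = 0.322). These genes lay lower in both auxin libraries, whereas HSP90AA1 had 1098 and 1213 CPM with auxin and 1098 and 1118 CPM with ethanol, which overlapped. DNAJB4 was highest among the log2 values of the members, at 1.04 (adjusted p = 0.0596), with 56.8 and 68.3 CPM with auxin and 26.9 and 34.0 CPM with ethanol. All 8 CCT subunits were between -0.05 and 0.15, and 0 of them had a call in edgeR or DESeq2 or an unadjusted p below 0.05 in edgeR.

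The size of the BRM014 effect differed between lines for HSPA8, HSP90AB1 and FKBP5, by an F test of the difference among the 3 lines that called 3 of the 41 members, against 6.47% of all tested genes. Adjusted p-values were 0.00056 for HSPA8, 0.00119 for HSP90AB1 and 0.000154 for FKBP5, and none of the alternatives tried removed these calls. Without KELLY DMSO replicate 2 the F test called 5 members. The effect on HSPA8 was -0.65 in SK-N-DZ relative to KELLY (SE 0.13, adjusted p = 0.000344), and 0.42 in KELLY relative to IMR-32 (SE 0.13, adjusted p = 0.0446). HSP90AB1 gave -0.56 in SK-N-DZ relative to KELLY (SE 0.12, adjusted p = 0.00101) and 0.42 in KELLY relative to IMR-32 (SE 0.12, adjusted p = 0.0275). For these genes the fall was smallest in KELLY, by tests that called 2 of the 41 members between KELLY and IMR-32 and 4 between SK-N-DZ and KELLY. Of all tested genes 3.28% were called in the first test (2.08% with a positive difference, 1.21% with a negative one) and 3.9% in the second (1.63% and 2.27%). Between SK-N-DZ and IMR-32 the differences were -0.23 for HSPA8 (95% interval -0.49 to 0.03) and -0.14 for HSP90AB1 (95% interval -0.38 to 0.10), without a call. The effect on FKBP5 was -1.13 in SK-N-DZ relative to IMR-32 (SE 0.22, adjusted p = 0.000348), the 1 call among the members in that test, where 2.61% of all genes were called (1.45% with a positive difference, 1.17% with a negative one). Relative to KELLY it was -1.08 (SE 0.23, adjusted p = 0.000791). BAG2 gave 1.55 in SK-N-DZ relative to KELLY (SE 0.47, adjusted p = 0.0387) and was not called by the F test (adjusted p = 0.0745).

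The inhibitor in IMR-32 and the degron in cells of the same origin differed in 4 of the 41 members, all lower with BRM014, where 0.887% of all tested genes were called lower, 1.06% higher and 1.95% in all. The BRM014 effect minus the auxin effect was -0.64 for HSPA8 (SE 0.13, adjusted p = 0.000533), -0.60 for HSP90AB1 (SE 0.12, adjusted p = 0.000653) and -0.55 for HSP90AA1 (SE 0.13, adjusted p = 0.0078). For FKBP4 it was -1.09 (SE 0.31, adjusted p = 0.0434). The call of HSP90AA1 was lost without auxin replicate 2 (adjusted p = 0.0613), which left 2 calls, and that of FKBP4 without any 1 of the 8 libraries (adjusted p = 0.056 to 0.229), with RLE scaling (adjusted p = 0.0519) and after the GC and length correction (adjusted p = 0.0774). Agent, vehicle and engineering differ together between these arms and cannot be told apart.

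With vehicle alone, the lines differed in many chaperone genes. The comparisons between lines share control libraries. Against IMR-32, 9 members were higher and 9 lower in KELLY, where 18.1% of all tested genes were higher and 21.6% lower (39.6% called). In SK-N-DZ 8 were higher and 12 lower than in IMR-32, against 21.2% and 22.9% of all genes (44.1% called). Set against KELLY, SK-N-DZ had 12 members lower and 0 higher (DESeq2 also called 0 higher, and 19 members had an unadjusted p below 0.05), against 15.2% and 16.6% of all genes (31.8% called). The share of members called was thus close to that of all genes in each comparison, apart from its direction in the last.

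HSPB1, BAG3 and HSPA1B were higher in KELLY than in IMR-32 and SK-N-DZ. HSPB1 had 5.39 and 1.10 CPM in SK-N-DZ, 59.4 and 38.0 CPM in KELLY and 1.47 and 5.49 CPM in IMR-32, and 0 counts in all 4 SMARCA4-mAID libraries. It was higher in KELLY than in IMR-32 by 3.83 (SE 0.80, adjusted p = 4.52e-05) and lower in SK-N-DZ than in KELLY, at -3.89 (adjusted p = 2.17e-05). BAG3 had 8.98 and 6.61 CPM in SK-N-DZ, 83.3 and 45.6 CPM in KELLY and 18.4 and 12.8 CPM in IMR-32. KELLY was above IMR-32 by 2.04 (SE 0.44, adjusted p = 7.27e-05), and SK-N-DZ was at -3.05 relative to KELLY (adjusted p = 4.45e-08). HSPA1B had 7 and 2 counts in SK-N-DZ, 48 and 23 in KELLY and 11 and 4 in IMR-32. It was called in SK-N-DZ relative to KELLY (-3.11, adjusted p = 0.000777) and in KELLY relative to IMR-32 (1.94, adjusted p = 0.0252). The second of these was lost after the GC and length correction (adjusted p = 0.157), without KELLY DMSO replicate 1 (1.52, adjusted p = 0.223) and without IMR-32 DMSO replicate 2 (adjusted p = 0.188).

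**Figure D4:**
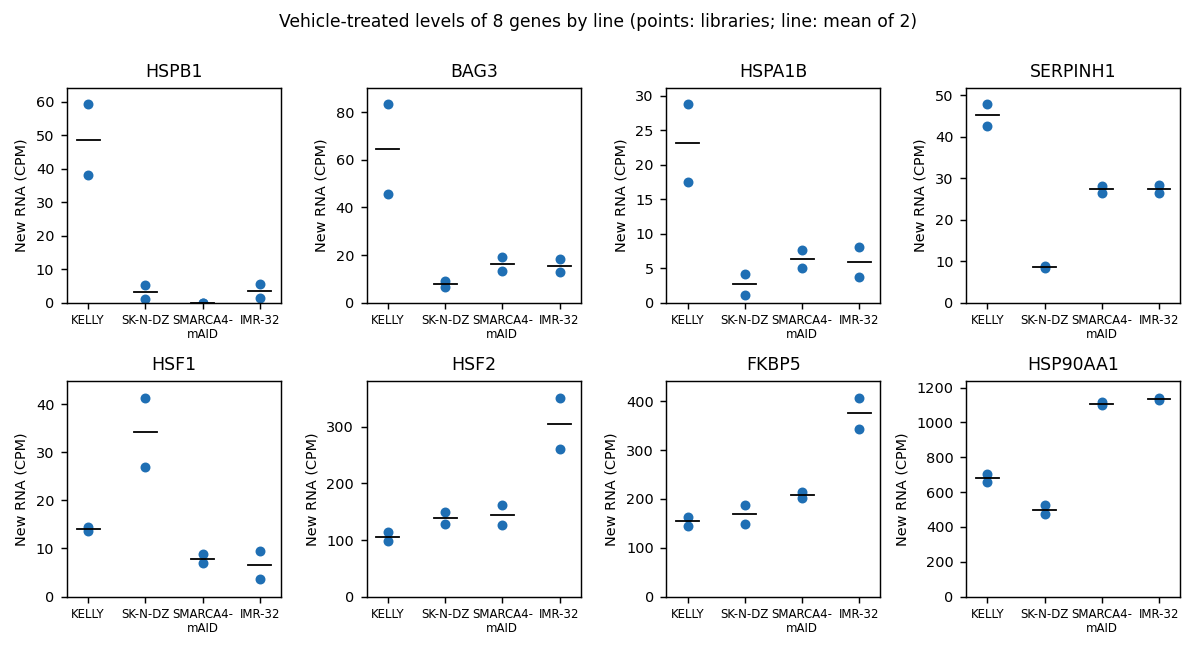
New RNA in CPM (vertical axes, each starting at 0) of 8 genes in vehicle-treated libraries of KELLY, SK-N-DZ, SMARCA4-mAID and IMR-32 cells; points are libraries and short lines are means of 2. HSPB1, BAG3 and HSPA1B are highest in KELLY, HSF1 in SK-N-DZ, and HSF2 and FKBP5 in IMR-32.

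Other members set the lines apart in other ways. SERPINH1 had 8.38 and 8.81 CPM in SK-N-DZ, 42.6 and 47.9 CPM in KELLY and 26.5 and 28.4 CPM in IMR-32, and SK-N-DZ was at -2.38 relative to KELLY (adjusted p = 7.68e-05) and at -1.66 relative to IMR-32 (adjusted p = 0.00654). ST13, an HSP70 partner that slows the release of ADP, was higher in KELLY than in IMR-32 (0.84, adjusted p = 1.75e-05), as was DNAJC7 (1.23, adjusted p = 7.75e-05), which overlaps CNP and NKIRAS2. HSPA4L was higher in SK-N-DZ than in IMR-32 (1.36, adjusted p = 0.000203). TRAP1 and HSF1 were higher in SK-N-DZ than in IMR-32 as well (1.35 and 2.31, adjusted p = 0.000647 and 0.000768), but after the GC and length correction these values were 0.65 and 0.75 (adjusted p = 0.132 and 0.351).

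IMR-32 made more new RNA of HSF2, FKBP5 and HSP90AA1 than the other lines. HSF2 had 98.9 and 113 CPM in KELLY and 129 and 149 CPM in SK-N-DZ, against 260.3 and 351 CPM in IMR-32, or -1.53 (adjusted p = 2.57e-13) and -1.13 (adjusted p = 2.97e-09). FKBP5 was at -1.29 in KELLY (adjusted p = 5.41e-13) and -1.15 in SK-N-DZ (adjusted p = 1.71e-11) relative to IMR-32. HSP90AA1 was at -0.74 in KELLY (adjusted p = 1.05e-10) and -1.19 in SK-N-DZ (adjusted p = 9.41e-20), and HSPA8 at -0.67 and -0.67 (adjusted p = 5.26e-10 and 3.51e-10). In each of these genes both IMR-32 libraries lay above all libraries of KELLY and SK-N-DZ. None of these calls was lost under any alternative.

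Ethanol-treated SMARCA4-mAID cells differed from DMSO-treated IMR-32 in 6 members, 5 lower and 1 higher, where 3.49% of all tested genes were lower and 2.67% higher (6.16% called). HSF2 had 163 and 126 CPM in SMARCA4-mAID cells, against 260.3 and 351 CPM in IMR-32 (-1.08, SE 0.16, adjusted p = 1.88e-07). FKBP5 had 201 and 214 CPM, against 344 and 407 CPM in IMR-32 (-0.85, SE 0.14, adjusted p = 2.06e-06), and HSP90AB1 1148 and 1076 CPM, against 1599 and 1575 CPM (-0.51, SE 0.08, adjusted p = 2.44e-06). These were the calls that held under all alternatives. TCP1 (-0.60, adjusted p = 0.000713) was lost without IMR-32 DMSO replicate 1 or ethanol replicate 2 (adjusted p = 0.0844 and 0.0971), while HSPD1 (0.37, adjusted p = 0.0163) and CHORDC1 (-0.55, adjusted p = 0.0404) were lost without any 1 of the 4 libraries (adjusted p of 0.0616 to 0.177 and 0.0987 to 0.384). Without ethanol replicate 2, 3 members were called. The vehicle and the engineering differ together here.

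Levels of different genes were compared per kilobase of annotated exon. HSPA8 and HSP90AB1 led the members in each vehicle group. HSPA8 had 429 and 397 CPM per kb in SK-N-DZ, 395 and 436 in KELLY and 654 and 663 in IMR-32. HSP90AB1 had 439.7 and 447 CPM per kb in SK-N-DZ, 436 and 469 in KELLY and 537 and 529 in IMR-32. HSPA8 was above HSP90AB1 in both IMR-32 libraries and below it in both libraries of KELLY and of SK-N-DZ. The ratio of HSP90AB1 to HSP90AA1 per kb was 2.68 in KELLY, 3.57 in SK-N-DZ, 1.36 in SMARCA4-mAID and 1.89 in IMR-32 cells with vehicle. HSPD1 stood at 5.75 to 11.7 times HSPE1 per kb in the vehicle groups, and their proteins work as 1 machine. Exons of HSPE1 overlap those of HSPD1 and of HSPE1-MOB4, so HSPE1 reads could have been lost or assigned to a neighbour. The ratio is therefore uncertain. Members whose exons held under 20% U (8 of 42) had a median of 3.01 to 13.5 CPM per kb over the 4 vehicle groups, against 50.8 to 60.4 for the other 34. As the counts rest on 4sU, which replaces uridine, the part of base composition in such levels was not tested.

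Within the CCT ring, whose subunits join in equal number, new RNA per kb was unequal, and the order of the means was not the same in each line. CCT7 had the lowest mean in each vehicle group, with 46.6 and 50.4 CPM per kb in SK-N-DZ, 60.2 and 53.6 in KELLY, 72.2 and 58.5 in SMARCA4-mAID cells and 59.8 and 64.1 in IMR-32, though in SMARCA4-mAID cells CCT5, with 68.2 and 70.2, lay within its range. The highest mean was that of CCT6A in KELLY, at 3.63 times CCT7, CCT3 in SK-N-DZ, at 2.85 times, CCT2 in SMARCA4-mAID cells, at 2.51 times, and CCT6A in IMR-32, at 2.58 times. Several lie close together: CCT6A in IMR-32 had 141 and 178 CPM per kb, which overlapped TCP1 with 169.8 and 146 and CCT2 with 149 and 164. Relative to IMR-32, TCP1, CCT2 and CCT4 were lower in KELLY (-0.90, -0.67 and -0.63, adjusted p = 2.31e-08, 5.60e-06 and 0.0004) and in SK-N-DZ (-0.83, -0.60 and -1.01, adjusted p = 1.07e-07, 3.37e-05 and 2.71e-08). CCT6A was higher in KELLY than in IMR-32 (0.37, adjusted p = 0.00603) and lower in SK-N-DZ than in KELLY (-0.65, adjusted p = 1.74e-06). The KELLY call of CCT4 over IMR-32 was lost without KELLY DMSO replicate 1 (-0.40). That of CCT6A was lost without KELLY DMSO replicate 2 (0.24) or IMR-32 DMSO replicate 1 (0.21). TCP1 overlaps ACAT2.

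**Figure D5:**
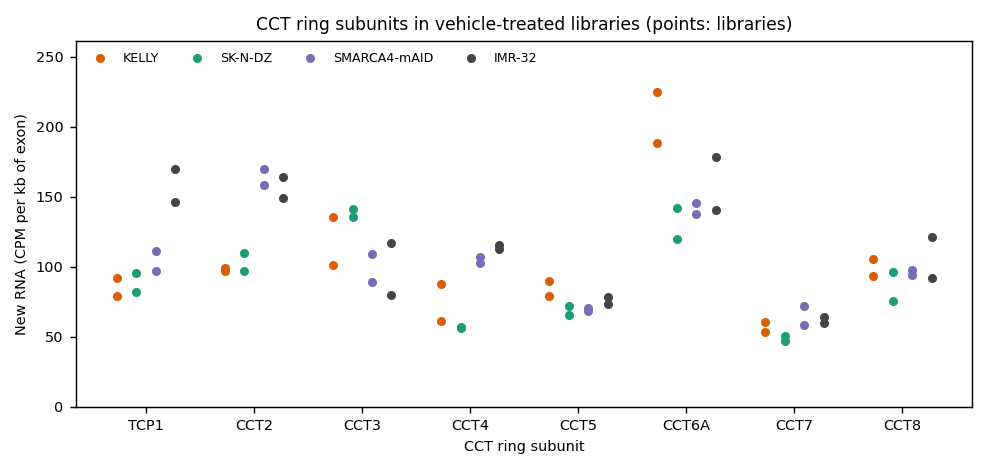
New RNA per kilobase of exon (CPM per kb, vertical axis from 0) of the 8 CCT ring subunits in vehicle-treated KELLY, SK-N-DZ, SMARCA4-mAID and IMR-32 libraries, each point 1 library. TCP1 and CCT2 are higher in IMR-32 than in KELLY and SK-N-DZ, CCT6A is highest in KELLY, and CCT7 is low throughout.

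Members with and without a 3-unit element were set side by side as a description. Of the 8 members with one, 6 fell with BRM014 in IMR-32, 6 in KELLY, 3 in SK-N-DZ, and with auxin 1 fell, where 6.57%, 4.98%, 9.55% and 1.16% of all tested genes did. Of the 28 tested members with a promoter window and no such element, 4 fell in IMR-32, 2 in KELLY, 9 in SK-N-DZ, and with auxin 0 fell. DNAJB6 and CHORDC1 hold the element and fell in none of these comparisons. The sets were not matched for counts, on which a call also depends, and the part of this was not tested.

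The rest of the folding system was described by 85 further genes in 5 lists. Among 16 chaperones of the endoplasmic reticulum, 3 fell and 1 rose with BRM014 in IMR-32, 2 fell and 0 rose in KELLY, and 7 fell and 0 rose in SK-N-DZ, where 12.8%, 11.6% and 19.4% of all tested genes were called in either direction. The list medians were -0.39, -0.23 and -0.48, against -0.02, 0.00 and -0.04 for all genes. HSPA5 (BiP), the HSP70 of that compartment, fell in each line, by 0.46 in IMR-32 (SE 0.14, adjusted p = 0.0176), 0.89 in KELLY (SE 0.12, adjusted p = 5.14e-09) and 0.78 in SK-N-DZ (SE 0.13, adjusted p = 6.44e-07). Its mean levels were 345 against 636 CPM in KELLY with BRM014 and DMSO. The disulfide isomerase PDIA3 fell by 0.91 in IMR-32 and 0.67 in SK-N-DZ, and P4HB, another isomerase, by 0.67 and 0.79 in the same lines (adjusted p = 0.000493, 0.00685, 0.023 and 0.000646). DNAJC3, which inhibits the kinase PERK, rose in IMR-32 by 0.65 (adjusted p = 0.0306). Auxin called 0 of the 16 in edgeR and in DESeq2, and 1 had an unadjusted p below 0.05.

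Of 28 tested genes of further HSP70 and HSP90 partners, 1 fell and 3 rose with BRM014 in IMR-32, 1 fell and 2 rose in KELLY, and 3 fell and 3 rose in SK-N-DZ, a share close to that of all tested genes in each line (12.8%, 11.6% and 19.4% called). The medians of this list were -0.12, -0.20 and -0.11. DNAJC6 (auxilin), the J-domain protein that brings HSPA8 to clathrin coats, rose in each line, by 1.39 in IMR-32 (SE 0.20, adjusted p = 6.55e-08), 0.61 in KELLY (SE 0.20, adjusted p = 0.0369) and 0.90 in SK-N-DZ (SE 0.23, adjusted p = 0.00166). DNAJB14, a J-domain protein of the endoplasmic reticulum membrane, rose by 0.72 in IMR-32 and 1.24 in SK-N-DZ (adjusted p = 0.00563 and 2.38e-07). TELO2, which with HSP90 assembles kinases related to PI3K, fell by 2.19 in SK-N-DZ (adjusted p = 0.000647). With auxin 0 of the 28 were called in edgeR and in DESeq2, and 5 had an unadjusted p below 0.05.

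Among 16 genes of mitochondrial folding and proteolysis, 1 fell in IMR-32, 1 fell in KELLY, and 4 fell and 1 rose in SK-N-DZ, against 12.8%, 11.6% and 19.4% of all tested genes called, with list medians of -0.34, -0.18 and -0.26. The gene called in IMR-32, that of the protease subunit CLPP (-3.64, adjusted p = 0.00547), was not called by DESeq2. CLPB, a mitochondrial disaggregase, fell by 1.74 in KELLY (SE 0.30, adjusted p = 4.31e-06) and 1.32 in SK-N-DZ (SE 0.30, adjusted p = 0.000464), while CLPX, which unfolds proteins for the protease ClpP, was higher there by 0.95 (adjusted p = 8.82e-05). The prohibitin genes PHB2 and PHB fell in SK-N-DZ by 1.06 and 1.01 (adjusted p = 3.50e-05 and 0.00211). Of 8 tested prefoldin and CCT helper genes, PFDN5 alone was called, in SK-N-DZ (-1.40, adjusted p = 0.0264). Of 10 tested heat-inducible and small heat shock genes outside the members, 2 fell in KELLY and 2 fell in SK-N-DZ. In IMR-32 0 of the 10 were called in edgeR or DESeq2, and 1 had an unadjusted p below 0.05. Auxin gave no call in these 3 lists with either tool, and 0, 0 and 1 of their genes had an unadjusted p below 0.05.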

How the data were processed

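Newly made RNA was measured in 16 libraries exposed to 4sU, as 8 groups of 2, and in 2 KELLY libraries without it. The authors deposited raw counts per gene symbol for 28063 genes, which they describe as conversion counts. Per the submitters' processing notes HISAT, HTSeq, DESeq2 and the build hg38 were used. Not given in the sources used are their roles and versions, the annotation, the strand setting and the rule for a converted read. Reads without a feature (46.4% to 57.4% in labelled libraries) and ambiguous reads (1.11% to 1.71%) stayed out of library sizes and tests. Gene counts per labelled library ranged from 724913 to 1740475. Shares and ratios of counts are given without an error estimate. Libraries of a group differed by more than counting error, with a chi-square per degree of freedom of 2.37 to 3.41.

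The members and lists were chosen with earlier results of these data known. Counts were tested with edgeR 4.0.16 in R 4.3.3 (quasi-likelihood test, TMM factors, filterByExpr, which kept 12853 genes and 41 of 42 members). All 16 labelled libraries entered 1 model of group means, which left 8 residual degrees of freedom. The spread of each gene was drawn toward that of all genes, with a median of 83.1 prior degrees of freedom. Tests and intervals therefore rest largely on a spread shared over genes. P-values were adjusted by the Benjamini-Hochberg method. Two-sided contrasts set each treated group against its vehicle, vehicle groups against each other, and effects against effects. Values for every library are given for members called in at least 2 treatment comparisons, called by a test of a difference, or among the 3 smallest p of a family, and for further lists up to 4 called genes per comparison with the smallest p are named.

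Alternatives were DESeq2 1.42.0, RLE scaling, no filter, a GC and length correction (values for 97.5% of tested genes), a replicate block, a fit of the 2 groups compared, and leaving out each library. The further lists and the pairwise differences of effects between lines were not fitted again under these, apart from the lists with DESeq2. The method was tested on simulated data. Between the libraries of a group, chi-square per degree of freedom was 2.37 to 3.41, so no library appeared to be deposited more than once. Gene positions, lengths and overlaps come from GENCODE 29 and promoter sequences from RefSeq (GRCh38.p14).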

Additional observations from a re-analysis of the deposited data

Results flagged for a closer look

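The BRM014 effect differed between cell lines in HSPA8, HSP90AB1 and FKBP5, with adjusted p-values of 0.00056, 0.00119 and 0.000154 in edgeR's F test of the difference. On the log2 scale, the HSPA8 effect in KELLY minus that in IMR-32 was 0.42 and that in SK-N-DZ minus that in KELLY was -0.65. For HSP90AB1 these differences were 0.42 and -0.56. FKBP5 had a difference of -1.13 between SK-N-DZ and IMR-32 and of -1.08 between SK-N-DZ and KELLY. BAG2 had 1.55 between SK-N-DZ and KELLY (SE 0.47, adjusted p = 0.0387), without a call in the F test.

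Taking the auxin effect in SMARCA4-mAID cells away from the effect of BRM014 in IMR-32 gave -0.64 for HSPA8, -0.55 for HSP90AA1, -0.60 for HSP90AB1 and -1.09 for FKBP4, each called by the test of that difference. With 2 libraries a group, no single library could be tested as standing apart from its group.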

How the results depend on the processing

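Counts of called members stayed within 1.5 times of the original under DESeq2, RLE scaling, no filter on low counts, the GC and length correction, and the fit of the 2 groups compared, which cannot be made for differences of effects. Leaving out 1 library gave 7 to 11 calls with BRM014 in IMR-32 (12 with all libraries), 5 to 6 in KELLY (9), 10 to 14 in SK-N-DZ (16) and 1 to 2 with auxin (2). Vehicle comparisons gave 14 to 16 for KELLY over IMR-32 (18), 14 to 19 for SK-N-DZ over IMR-32 (20), 10 to 12 for SK-N-DZ over KELLY (12) and 3 to 4 for SMARCA4-mAID over IMR-32 (6). The F test gave 3 to 5 (3) and the inhibitor minus degron difference 2 to 5 (4). A library left alone in its group is assumed to vary like the other groups. Among all genes, the counts that moved by over 1.5 times did so without 1 library: 922 to 1091 against 1650 with BRM014 in IMR-32, 872 to 904 against 1485 in KELLY, 1622 to 1648 against 2498 in SK-N-DZ, 131 to 158 against 281 with auxin, 372 to 485 against 792 for SMARCA4-mAID over IMR-32 and 140 to 156 against 250 for the inhibitor minus degron difference.

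The calls kept under every alternative were 7 of 12 in IMR-32, 3 of 9 in KELLY, 7 of 16 in SK-N-DZ and 0 of 2 with auxin. The GC and length correction changed the sign of 4 vehicle differences. CHORDC1 in KELLY over IMR-32 became 0.42, and in SK-N-DZ over IMR-32 HSPH1 became 0.39 and DNAJA1 0.32. These had not been called before it, with means of 157 against 158, 310 against 334 and 350.1 against 350.3 CPM. STIP1 in SK-N-DZ over IMR-32, called before the correction, became -0.015 (adjusted p = 0.961). With the replicate block added, these were 0.42, 0.38, 0.33 and -0.017. The cause was not tested. Libraries of the same replicate number did not deviate together (correlations of 0.01, -0.03, 0.02 and -0.01 over 8253 genes). The sources do not say whether such libraries were handled together, and these correlations cannot tell. The replicate block alone gave 12 calls in IMR-32, 7 in KELLY, 16 in SK-N-DZ and 2 with auxin. It lost DNAJA1 and FKBP4 in KELLY (adjusted p = 0.052 and 0.0548) and added SERPINH1 to the inhibitor minus degron difference and DNAJB4 to SK-N-DZ over KELLY.

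Depth was lower with BRM014 in IMR-32 and SK-N-DZ than with DMSO, and changes of members with few counts (HSPA1A, HSPA1B, STUB1, HSF1, HSPB1) were hard to detect.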
